A study of Mus musculus with 24 samples.

Results

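The report concerns the interaction of knockdown with time in differentiating mouse fat cells, that is, how far the effect of a knockdown at 72 h differed from its effect at 24 h. All 24 libraries of the series entered the contrast (KD 72 h − NC 72 h) − (KD 24 h − NC 24 h) on the log2 scale, and 12696 genes were tested in it. The cells were primary preadipocytes from the inguinal white fat of young male 129SvEv mice (129S6sv/ev in the study's methods), induced for 2 days and differentiated with rosiglitazone into brite adipocytes. After 1 day of differentiation reverse transfection delivered, at 50 nM, either a gapmer made with locked nucleic acid against transcript 1 of the long noncoding RNA Ctcflos (KD) or a nontargeting gapmer (NC), and RNA was harvested after 24 h or 72 h. There were 4 groups with 6 libraries each. Every group carried the same rosiglitazone and transfection reagent, and cells taken at 72 h had received fresh medium after the first 24 h. The study used a single gapmer in these libraries. It calls the libraries of a group biological replicates, and as the labels do not tie them to animals, p-values measure the spread between these samples.

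Brite adipocytes are white fat cells that acquire the heat-producing programme of brown fat, including Ucp1, the mitochondrial uncoupling protein. A gapmer pairs with its target RNA and directs RNase H to cut it, so early changes are read soon after the cut and later ones also include what follows in the differentiating cell. An interaction separates 4 courses: an effect that grew, an effect seen late only, an effect that faded, and an effect that changed sign.

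By the depth recovered from the RPKM the libraries held 1391824 reads (KD 24 h, replicate 6) to 5926244 (NC 72 h, replicate 6), with a median of 4009974.5. The depth of NC 72 h replicate 6 may be overstated, as 21.1% of its low read numbers were odd, against 55.9% or more in the other libraries. Since replicates 2 and 3 of NC 72 h differed by less than sampling noise, their mean served as 1 sample, which gave NC 72 h n = 5 and the fit 23 samples. By their deviations from the group means the samples formed 2 clusters that no label explains, the larger with 15 samples and the smaller with 8, the latter drawing 2 from every group, and values within each cluster are given where they bear on a result. The adipocyte defining markers Adipoq, Plin1, Fabp4, Pparg, Lpl and Cebpa were above 0 in every group. Levels are given in scaled RPKM (reads per kilobase of transcript relative to the reads of the library, brought to a common scale). The markers summed to 34900 to 48300 in KD 24 h, 48400 to 51200 in NC 24 h, 24500 to 33700 in KD 72 h and 34700 to 46000 in NC 72 h. The sum, most of it Fabp4, was thus lower in KD without overlap at both times.

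The Ctcflos entry that was fitted, NR_040321, was lower in KD at both times, and the transcript that the gapmer targets had too few reads at 24 h to show a lowering. Transcript 1 (AK041254) measured 0.85, 0.48, 0.52, 0.21, 0.17 and 0.36 RPKM as deposited in NC 24 h and 0, 1.03, 0.17, 0.33, 0 and 0 in KD 24 h, on 12 and 8 reads. In NC 72 h it measured 0.89, 0.12, 1.55, 2.36 and 2.48 and in KD 72 h 0, 0.53, 0, 0, 0 and 0.21, on 41 and 3 reads. Its groups overlapped at both times, and it was not fitted. AK079954, a further entry of the gene, had 36 reads in NC 24 h, 6 in KD 24 h, 58 in NC 72 h and 7 in KD 72 h. NR_040321, whose values equal those of AK005014 to within 0.01 RPKM, is not the transcript that the gapmer was designed against. It measured 0.19, 0.221, 0.54, 0.987, 1.29 and 1.45 scaled RPKM in NC 24 h, and between 0 and 0.56 in KD 24 h. At 72 h this entry measured 1.69, 1.02, 0.905, 1.84 and 1.03 in NC, and in KD it lay between 0 and 0.449. Its groups did not overlap at 72 h and overlapped at 24 h, and its levels rest on 60 reads in NC 24 h, 12 in KD 24 h, 101 in NC 72 h and 17 in KD 72 h. The effect was -1.71 ± 0.54 (log2, SE) at 24 h and -2.46 ± 0.57 at 72 h, and their difference of -0.75 ± 0.79 (95% interval -2.37 to 0.88) did not pass the test (limma, adjusted p = 0.75).

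In the fit used here the effect of the knockdown differed between the times for few genes, and mostly by becoming larger or by appearing late. Of 12696 genes, 49 passed the interaction at an adjusted p under 0.05, or 0.386% (limma, Benjamini-Hochberg, two-sided), and 1585 had an unadjusted p under 0.05. The difference was positive, that is, the effect was higher at 72 h, for 36 of them (0.284% of the genes tested) and negative for 13 (0.102%), a positive share of 73.5%. On RPKM as deposited, without scaling, 216 genes passed and 96.8% were positive, with the median of all genes at 0.17. By comparison 3361 genes (26.5%) were called for the knockdown at 24 h, 12.4% of all higher and 14.1% lower, and 2490 (19.6%) at 72 h, 9.45% higher and 10.2% lower. Among the 49, 12 grew (called at both times in the same direction and larger at 72 h), 24 were late (called at 72 h alone), 6 faded (called at 24 h alone, or smaller at 72 h) and 7 reversed. The absolute effect was larger at 72 h for 42 of the 49. The mix of courses depended on the setting. In the larger cluster alone 43 grew, 78 were late, 104 faded and 20 reversed, of 245 called. In the smaller cluster alone these were 12, 400, 11 and 7, of 446. With sample weights they were 36, 59, 50 and 31, of 176. Aqp2, Slc5a7 and Sprr2k, 3 of the 36, reached the filter on low values (10 reads in 5 samples) through KD 72 h alone, so that they had to differ, and they are described below by their reads with no test.

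**Figure D1:**
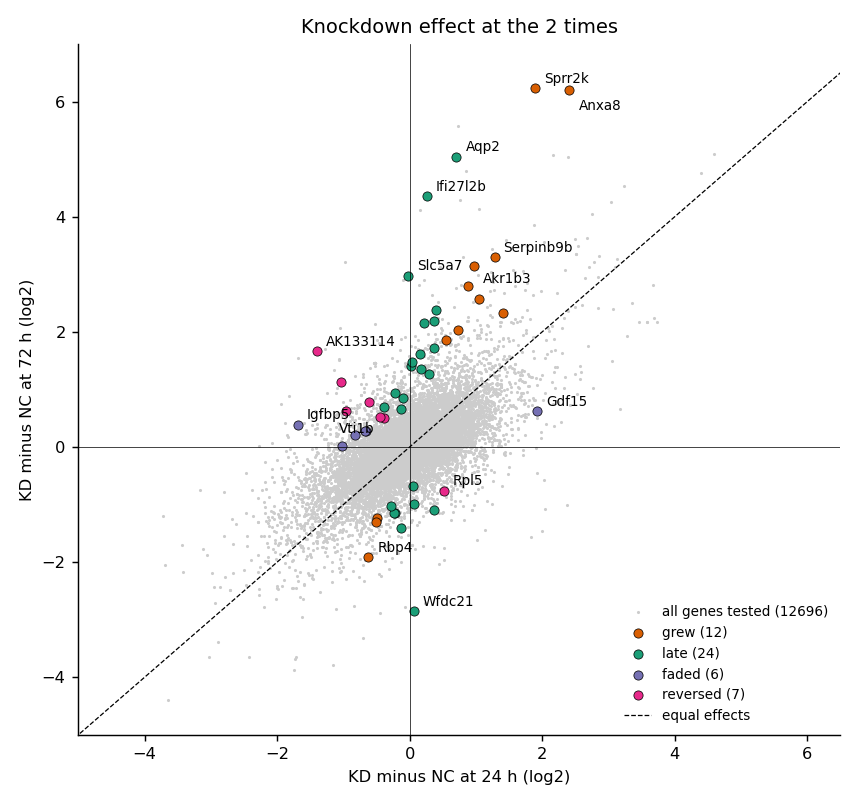
Knockdown effect (KD minus NC, log2) at 24 h on the horizontal axis and at 72 h on the vertical axis, 1 point per gene, with the 49 genes that passed the interaction coloured by course. The dashed line marks equal effects. Ifi27l2b sits at 0.26 at 24 h and at 4.36 at 72 h, and the 7 reversed genes lie in the upper left and lower right of the crossing zero lines. Aqp2, Slc5a7 and Sprr2k are drawn though they reached the filter through KD 72 h alone.

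The number called was sensitive to single libraries. It was 110 without KD 24 h replicate 6, the shallowest library, and 89 without KD 24 h replicate 1. It fell to 20, 24 and 25 without KD 72 h replicates 1, 2 and 3, to 30, 22 and 32 without NC 24 h replicates 1, 2 and 4, to 32 without KD 24 h replicate 2, and to 32 and 31 without the averaged NC 72 h replicates 2 and 3 and without replicate 6. Of the 49, 20 were called in every one of the 23 fits that left out a library. Genes called in few of these fits included Maoa (3 of the 23), Limk2 (4), Hspa1b and Zmiz1 (5) and Aadac (6). Further ones were Crip1 and Akap2 (7), Gdf15 (8), Fndc8 (9), Retn (10) and Serpinb9b (11). All 49 genes had the same sign in both sample clusters, where over all genes the sign was the same for 49.9%. The pooled fit that chose them includes both clusters. The standard error of the interaction had a median of 0.36 over all genes. The smallest difference called, 0.72 on the log2 scale, was that of Gm12338, whose standard error was 0.14. At a standard error near the median a larger difference was needed: Ucp1, at -1.17 ± 0.35, did not pass. Differences under 0.72 were thus not detectable for most genes, and larger ones could also go undetected.

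**Figure D2:**
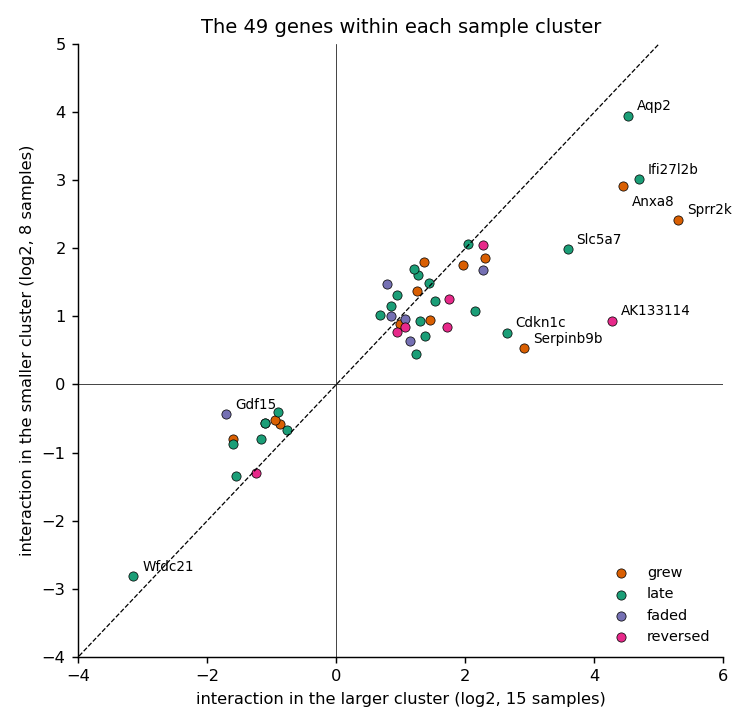
Interaction (log2) of the 49 genes fitted in the larger cluster of 15 samples (horizontal) and in the smaller cluster of 8 samples (vertical), coloured by course, with a dashed line of equality. All points lie at the lower left or upper right of the crossing zero lines; Serpinb9b, at 2.92 and 0.53, and AK133114, at 4.27 and 0.93, lie far from the line.

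Of the genes whose effect grew, 2 were aldo-keto reductases. Akr1b3 encodes aldose reductase, which turns glucose into sorbitol. Its lowest, median and highest levels were 10.1, 10.9 and 14.2 scaled RPKM in NC 24 h, 10.6, 24.9 and 36.0 in KD 24 h, and 45.1, 66.2 and 79.2 in KD 72 h, against 5.5, 9.66, 6.17, 7.57 and 6.41 in NC 72 h. KD and NC overlapped at 24 h through KD replicate 6 and stood apart at 72 h. The effect was 0.97 ± 0.23 (log2, SE) at 24 h and 3.14 ± 0.24 at 72 h, a difference of 2.16 ± 0.33 (adjusted p = 0.0048). Akr1b8, a close relative that reduces lipid aldehydes, measured 55.0, 62.0 and 72.1 in NC 24 h and 80.1, 103 and 124 in KD 24 h. In NC 72 h it measured 83.9, 97.4, 68.2, 65.1 and 78.3, and in KD 72 h 213, 371 and 405. Its groups did not overlap at either time, and the effect of 0.73 grew by 1.31 ± 0.22 (adjusted p = 0.0055) to 2.04. Both genes belong to the list of 25 targets of NRF2, the regulator of the antioxidant response. No other member of that list was called, and its median difference was -0.07 (0.09 without scaling), against 0.02 over all genes tested (0.17 without scaling).

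Tfpi2, an inhibitor of serine proteases of the Kunitz type, also grew, from 0.55 ± 0.15 to 1.86 ± 0.16 (difference 1.31 ± 0.22, adjusted p = 0.0055). It measured 17.9, 20.4 and 27.5 scaled RPKM (lowest, median, highest) in NC 24 h, 24.4, 32.2 and 39.1 in KD 24 h, 18.8, 25.9 and 29.6 in NC 72 h and 74.5, 83.1 and 110 in KD 72 h. The groups overlapped at 24 h alone. Olr1, the receptor of oxidised low-density lipoprotein, was late: KD and NC covered 4.19 to 7.46 and 4.11 to 6.67 at 24 h, and 13.8 to 23.9 and 5.04 to 6.27 at 72 h. Its effect went from 0.15 ± 0.18 to 1.61 ± 0.18 (difference 1.46 ± 0.25, adjusted p = 0.0074).

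The promoters of both genes are shown because they hold a match to a loose form of the AP-1 site, the motif bound by FOS and JUN proteins, close to the start of transcription. The letters searched were TGANTCA, on both strands, within 250 bases before and 50 after the start. N stands for any base, A in the Tfpi2 match and G in the Olr1 match, so a match need not be a site that these proteins bind. RefSeq promoters (GRCm38.p6) were found for 33 of the 49 genes; 7 of them (21.2%) held a match in at least 1 of their promoters, as did 6.32% of the 8032 tested genes with a promoter, and 7.81% of all 32851 promoters held one. The motifs were chosen with the genes known. The third sequence is from Hspa1b, a heat shock chaperone described further on. It holds the letters GAANNTTC of a heat shock element, which 4 of the 33 hold and 7.03% of the tested genes with a promoter. The letters TGACNNNGC of the antioxidant response element were in the promoters of 0 of the 33 genes and 17.32% of the tested genes, the interferon-stimulated response element in 1 and 3.72%, and the TATA box letters TATAAA in 6 (18.2%) and 8.72%. Over all promoters the shares of these 4 motifs were 7.86%, 12.39%, 3.44% and 13.62%. These counts include Sprr2k and Slc5a7, which reached the filter through KD 72 h alone. Sprr2k is among the 7 with the AP-1 letters, Slc5a7 among the 4 with the heat shock element, and both among the 6 with TATAAA. The searches used both strands and some windows held more than 1 of these motifs. Matches are in capitals, 5′ to 3′ on the strand of the gene.
Tfpi2 (chr6:3968326-3968625, minus strand): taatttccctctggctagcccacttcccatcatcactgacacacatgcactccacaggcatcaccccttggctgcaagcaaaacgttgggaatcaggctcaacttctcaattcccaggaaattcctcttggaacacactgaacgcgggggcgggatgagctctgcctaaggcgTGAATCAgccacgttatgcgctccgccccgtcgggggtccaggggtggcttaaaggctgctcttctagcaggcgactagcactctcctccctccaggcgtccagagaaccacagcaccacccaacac
Olr1 (chr6:129507116-129507415, minus strand): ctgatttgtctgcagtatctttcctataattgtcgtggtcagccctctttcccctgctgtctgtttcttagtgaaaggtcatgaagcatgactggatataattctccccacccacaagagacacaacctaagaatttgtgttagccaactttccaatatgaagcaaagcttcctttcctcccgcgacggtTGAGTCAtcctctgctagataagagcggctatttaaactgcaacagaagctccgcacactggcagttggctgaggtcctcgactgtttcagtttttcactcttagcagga
Hspa1b (chr17:34959189-34959488, minus strand): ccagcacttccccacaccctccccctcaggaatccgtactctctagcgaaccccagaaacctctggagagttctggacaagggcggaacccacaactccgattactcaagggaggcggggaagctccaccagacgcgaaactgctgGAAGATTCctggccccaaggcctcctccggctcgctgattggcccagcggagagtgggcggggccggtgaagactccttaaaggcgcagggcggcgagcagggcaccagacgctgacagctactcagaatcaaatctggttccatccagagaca
The match began 77 bases before the start of transcription in Tfpi2, 60 before it in Olr1 and 104 before it in Hspa1b.

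The other genes that grew upward were Krt19, Anxa8, Serpinb9b, Sprr2k, Maoa and the unnamed cDNA AK054167, of which Sprr2k, Maoa and AK054167 were named after their values were seen. Anxa8, a phospholipid-binding annexin, measured 0.167 to 0.924 scaled RPKM in NC 24 h and 0.66 to 4.73 in KD 24 h. In NC 72 h it measured 0, 0.397, 1.12, 0.473 and 0, and in KD 72 h 14.6 to 33.9. The effect was 2.41 ± 0.52 and then 6.19 ± 0.55, and the difference of 3.78 ± 0.75 (adjusted p = 0.025) depends on the pseudocount because control levels were near 0. The equivalent of 10 reads was reached in 5 KD 24 h and 6 KD 72 h samples and in 0 NC samples at either time. Anxa8 thus entered the test through KD alone, and its p-value carries that selection. Krt19, a keratin of simple epithelia, went from 1.04 ± 0.22 to 2.57 ± 0.23 (difference 1.52 ± 0.32, adjusted p = 0.032), with 24.7 to 75.7 scaled RPKM in KD 24 h, 96.0 to 162 in KD 72 h, 19.1 to 26.2 in NC 24 h and 18.8 to 27.9 in NC 72 h. Serpinb9b, of the family that inhibits granzymes, went from 1.28 to 3.30 (difference 2.01 ± 0.43, adjusted p = 0.033), but by 2.92 in the larger and 0.53 in the smaller cluster. Maoa, which breaks down monoamines, went from 1.40 to 2.32. Sprr2k, a precursor of the epidermal envelope, was listed at 0 in all NC 72 h libraries, against 125 reads in KD 72 h, 15 in KD 24 h and 3 in NC 24 h, and its only samples with the equivalent of 10 reads were in KD 72 h. How reads were split between near-identical copies in the serpin, small proline-rich, aldo-keto reductase and tubulin families was not stated, and single members of these families are uncertain in that respect.

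**Figure D3:**
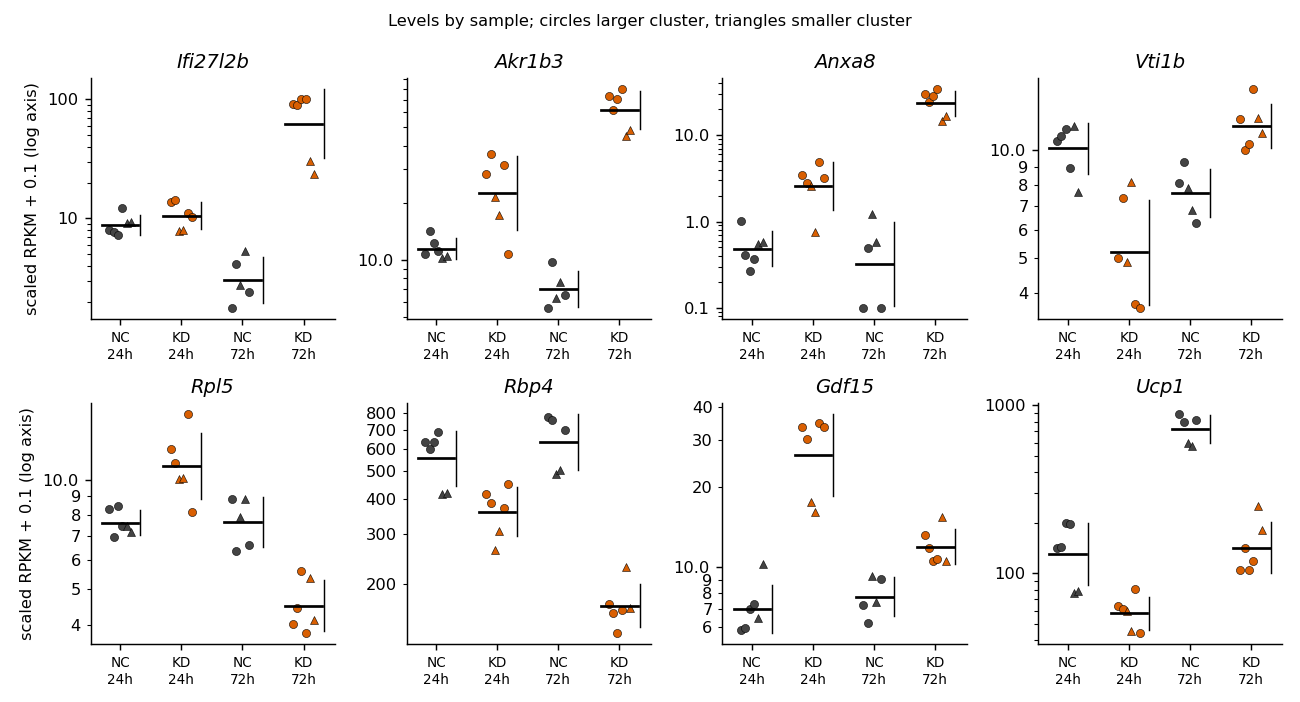
Scaled RPKM + 0.1 (log axis) of 8 genes by group, 1 symbol per sample, circles for the larger and triangles for the smaller cluster. The horizontal bar is the mean of the log values and the vertical line spans 1 SD each way; Akr1b3 in KD 72 h lies between 45.1 and 79.2, above every other sample, Vti1b and Rpl5 change order between the times, and Gdf15 stands apart in KD 24 h.

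Late responses were the most common course, with 16 genes up and 8 down, Slc5a7 and Aqp2 being counted among the 16. Ifi27l2b, an interferon-inducible protein of mitochondria, changed most by p-value. It measured 7.14, 8.44 and 12.2 scaled RPKM (lowest, median, highest) in NC 24 h and 7.79, 10.5 and 14.2 in KD 24 h. At 72 h it measured 1.68, 4.04, 2.64, 5.26 and 2.3 in NC, and 23.7, 90.0 and 101 in KD. The groups overlapped at 24 h and were far apart at 72 h. The effect went from 0.26 ± 0.33 to 4.36 ± 0.34, a difference of 4.10 ± 0.47 (adjusted p = 0.00011), with 4.69 in the larger and 3.02 in the smaller cluster. Over time it fell in NC by 1.53 on the log2 scale (adjusted p = 0.0062) and rose by 2.56 in KD (adjusted p = 8.3e-06).

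Slc5a7, the choline transporter, had 3 reads in NC 72 h and 124 in KD 72 h, after 5 in each group at 24 h. Aqp2, a water channel best known from the kidney, had 5 reads in NC 24 h, 10 in KD 24 h, 0 in NC 72 h and 124 in KD 72 h. It lay between 1.43 and 6.46 scaled RPKM in KD 72 h and was listed at 0 in all 5 NC 72 h samples. Neither had a sample with the equivalent of 10 reads outside KD 72 h. Tubb2a, a β-tubulin, measured 58.0 to 90.1 in KD and 72.3 to 100 in NC at 24 h, and 112 to 192 in KD and 81.1 to 88.8 in NC at 72 h. Its effect went from -0.22 ± 0.13 to 0.93 ± 0.14 (adjusted p = 0.0055 for the difference).

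Hspa1b, whose promoter is shown above, was the only member called of 37 proteasome subunits and heat shock chaperones. In NC 72 h it measured 2.61, 1.88, 3.08, 1.81 and 1.79 scaled RPKM and in KD 72 h 5.56 to 8.31, and at 24 h the groups overlapped, from 2.34 to 4.83 in NC and from 2.49 to 6.07 in KD. The effect went from 0.36 ± 0.21 to 1.72 ± 0.22 (difference 1.35 ± 0.31, adjusted p = 0.049), and a near-identical copy, Hspa1a, can share its reads. The call held in 5 of the 23 fits that left out a library. Other late rises, named after their values were seen, were those of Trim29 (difference 1.81), Fndc8 (1.44), Tuba4a (1.40), Limk2 (1.19), Akap2 (1.08) and Cthrc1 (0.98), the last a secreted matrix-associated protein that rose over time in both conditions.

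In some late genes a change over time was called in the control and not in the knockdown. Arc, an activity-regulated gene best known from neurons, measured 3.51 to 7.35 scaled RPKM in NC 24 h and 0.721, 0.723, 2.57, 1.01 and 1.18 in NC 72 h, a fall by 2.14 on the log2 scale (adjusted p = 8.8e-06). In KD it measured 4.78 to 9.86 at 24 h and 5.5 to 7.49 at 72 h (change -0.15, adjusted p = 0.75). The interaction was 1.99 ± 0.37 (adjusted p = 0.015). The same pattern was seen in 3 genes named after their values were seen: Cdkn1c, an inhibitor of the cell cycle (NC -1.54, KD 0.39), Baiap2, a regulator of actin (NC -0.81, KD 0.14), and Septin9, listed under a symbol turned into a date (NC -0.77, KD 0.02). Of the 36 genes with a positive interaction, 26 were called over time in KD alone, 7 in NC alone, 2 in both in opposite directions and 1 in both in the same direction. Of the 13 with a negative one, 11 were called in KD alone and 2 in NC alone. Over all genes 741 (5.84%) were called over time in NC and 1910 (15.0%) in KD. A call in 1 condition and not in the other is tested by the interaction itself, which these genes passed.

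Falls that grew or came late included secreted products of fat cells. Rbp4, the carrier of retinol in blood, measured 416, 616 and 690 scaled RPKM (lowest, median, highest) in NC 24 h and 264, 379 and 452 in KD 24 h. In NC 72 h it measured 778, 760, 491, 506 and 698, and in KD 72 h 135, 164 and 230. The effect went from -0.62 ± 0.16 to -1.92 ± 0.17 (difference -1.29 ± 0.24, adjusted p = 0.012). Retn, the adipokine resistin, did not differ by more than the spread at 24 h (237 to 406 in KD, 258 to 339 in NC) and fell at 72 h, to 98.2 to 197 in KD against 231 to 319 in NC (difference -1.05 ± 0.23, adjusted p = 0.039). It was the only one called of 16 general adipocyte genes; their median effect went from -0.19 to -0.55, and 3 were called lower at 24 h and 11 at 72 h, where 14.1% and 10.2% of all genes were.

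Zadh2, an oxidoreductase of the zinc-binding dehydrogenase type, measured 7.41 to 12.2 in NC 24 h, 8.56 to 17.8 in KD 24 h, 8.76 to 14.5 in NC 72 h and 3.96 to 7.07 in KD 72 h. Its difference was -1.47 ± 0.27 (adjusted p = 0.014). Aadac, an esterase of lipid metabolism, differed by -1.28 ± 0.29 (adjusted p = 0.049), and Crip1, a small LIM-domain protein, by -0.75 ± 0.16 (adjusted p = 0.039). Wfdc21, which the table lists as 1100001G20Rik and which was named after its values were seen, had the largest fall of the 13: 14.6 to 37.0 scaled RPKM in the groups at 24 h, 8.98 to 45.3 in NC 72 h and 1.19 to 7.1 in KD 72 h (difference -2.92 ± 0.62, adjusted p = 0.033). Gm12338 (difference -0.72, late) and an unnamed Ensembl transcript (-0.80, grew), also named after their values were seen, complete the falls outside the mitochondrial entries below. Eif2s2, Cox7b, Acadm and Taf7 had the next smallest p-values among genes with a full symbol in this direction and did not pass (adjusted p = 0.051, 0.059, 0.059 and 0.063).

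Effects that faded were losses at 24 h, except for Gdf15. Gdf15, a cytokine induced by cellular stress, measured 5.74, 6.63 and 10.2 scaled RPKM in NC 24 h (lowest, median, highest) and 16.1, 31.9 and 34.6 in KD 24 h. At 72 h it measured 7.11, 6.1, 9.19, 7.34 and 8.95 in NC and 10.5, 11.2 and 15.4 in KD. KD stood above NC at both times, by 1.92 ± 0.19 and then by 0.62 ± 0.20, and the difference was -1.29 ± 0.28 (adjusted p = 0.036; -1.71 in the larger and -0.44 in the smaller cluster). Eva1b lay at 10.9 to 15.9 in KD and 17.9 to 24.9 in NC at 24 h, and the groups overlapped at 72 h, at 20.5 to 26.3 and 15.2 to 22.6. Its effect went from -0.65 ± 0.12 to 0.27 ± 0.13 (difference 0.92 ± 0.18, adjusted p = 0.017).

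The other 4 that faded were named after their values were seen. Igfbp5, which binds insulin-like growth factors, had an effect of -1.69 ± 0.30 at 24 h and 0.39 ± 0.32 at 72 h, where NC had fallen by 1.57. Rasa3, which switches off RAS, had -1.02 and then 0.02. Zmiz1, a transcriptional coregulator, had -0.83 and then 0.21. Cyp4b1, a cytochrome P450, had -0.68 and then 0.27.

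For 7 genes the effect reversed: 8 genes were called at both times with opposite signs, of 1400 called at both, and 7 of the 8 passed the interaction. Vti1b, a SNARE protein of endosomal fusion, measured 7.58, 10.7 and 11.6 scaled RPKM in NC 24 h and 3.54, 4.83 and 8.04 in KD 24 h (lowest, median, highest). At 72 h it measured 8.02, 9.19, 7.78, 6.73 and 6.17 in NC and 9.93, 11.6 and 14.7 in KD. KD was thus lower at 24 h with a small overlap and higher at 72 h without one. The effect went from -0.96 ± 0.18 to 0.62 ± 0.19 (difference 1.59 ± 0.27, adjusted p = 0.0055). Ascc2, a subunit of a complex acting in ribosome quality control, stood at 3.11 to 4.35 in KD against 4.66 to 7.71 in NC at 24 h, and at 5.89 to 9.01 against 3.87 to 5.64 at 72 h. Neither pair overlapped (-0.62 and 0.79, difference 1.41 ± 0.23, adjusted p = 0.0055). Stk38, a kinase of the NDR family, went from -0.39 to 0.51 (adjusted p = 0.027), and Ripk3, the kinase of necroptosis, from -0.44 to 0.53 (adjusted p = 0.03). Fam183b went from -1.03 to 1.13 (adjusted p = 0.036) and the unnamed cDNA AK133114 from -1.40 to 1.67 (adjusted p = 0.049), the latter on 22 to 78 reads per group. Vti1b and Ascc2 were called in all 23 fits that left out a library, Stk38 in 18, Ripk3 in 15, Fam183b in 12 and AK133114 in 5. With the replicate block Stk38, Ripk3, Fam183b and AK133114 did not pass (limma, adjusted p = 0.083, 0.061, 0.075 and 0.11). The number reversed was 3 with that block, 2 without NC 72 h replicate 6 and 31 with sample weights.

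Rpl5, a protein of the large ribosomal subunit, was the only reversal downward. In NC it measured 6.85 to 8.34 scaled RPKM at 24 h and 8.73, 6.27, 7.79, 8.76 and 6.5 at 72 h, a change of 0.00 (adjusted p = 0.99). In KD it measured 8.03 to 15.0 at 24 h and 3.7 to 5.51 at 72 h. The effect went from 0.52 ± 0.15 to -0.76 ± 0.16 (difference -1.28 ± 0.22, adjusted p = 0.0055; -1.25 and -1.29 in the clusters). With the entry of the highest level from any source in place of the RefSeq entry, the difference was -0.24 (adjusted p = 0.68), so the call holds for the RefSeq entry only. Of 52 ribosomal protein genes tested no other was called, and their median difference was -0.11, or 0.05 without scaling, where the median of all genes was 0.17.

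Most interferon-stimulated genes fell over time in both conditions, with a smaller median fall in KD. Of 28 tested, 23 were called lower at 72 h than at 24 h in NC and 21 in KD, where 2.96% and 6.90% of all genes were, and their median change over time was -1.95 in NC and -1.32 in KD. Their interaction was positive for 24 of the 28, as it was for 6614 of all 12696 genes. Its median was 0.60 against 0.02 over all genes, and 1 gene passed the test, Ifi27l2b. The median knockdown effect of the list was 0.25 at 24 h and 0.89 at 72 h, with 4 called higher at 24 h and 13 at 72 h, where 12.4% and 9.45% of all genes were. Usp18, which removes the ubiquitin-like ISG15 and was named after its values were seen, fell by 2.83 in NC and by 1.41 in KD (difference 1.42 ± 0.42, adjusted p = 0.13). Irf7, a transcription factor of this response, changed by -0.53 in NC and 0.44 in KD (difference 0.97 ± 0.31, adjusted p = 0.17). Within the larger and the smaller cluster the list's median stood at 0.44 and 0.98. Ifi27l2a, a close relative of Ifi27l2b, rose over time in both conditions, by 1.89 and 2.21, and its difference of 0.31 ± 0.30 did not pass (adjusted p = 0.72).

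**Figure D4:**
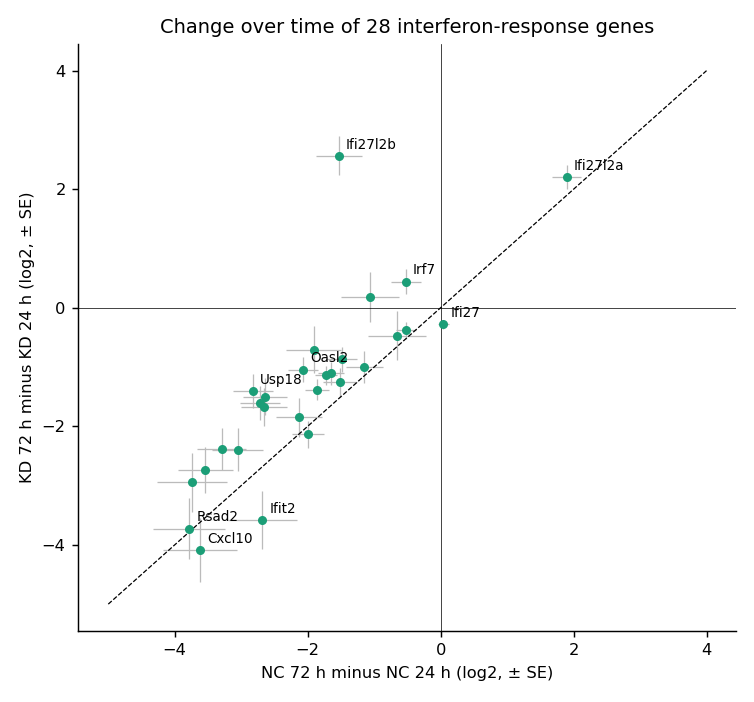
Change from 24 h to 72 h of 28 interferon-stimulated genes in NC (horizontal) and KD (vertical), log2 with SE bars and a dashed line of equal change. Of the 28 points, 24 lie above the line and most lie below 0 on both axes; Ifi27l2b is at -1.53 in NC and 2.56 in KD.

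Epithelial and stress-associated genes had the largest median of the lists over all samples, though not in the smaller cluster, where that of interferon-stimulated genes was larger. The list has 26 members, of which 15 reached the filter on low values and were tested. Members near 0 in NC could reach it through KD alone, as Anxa8 did. The counts and medians below therefore lean toward members that are high in KD. Of the 15, 11 had a positive difference, as did 6614 of all 12696 genes, and 3 passed (Anxa8, Krt19 and Serpinb9b). Their median effect over the 15 went from 2.16 at 24 h to 3.26 at 72 h. Their median difference was 1.23, with 1.37 in the larger and 0.53 in the smaller cluster. Serpinb2, a protease inhibitor induced by stress, had -3.45 ± 1.13 (adjusted p = 0.18), and Serpinb9 had effects of 2.33 and 2.25, a difference of -0.08 ± 0.23. Krt19 also stands in the list of 9 mesothelial markers, whose summed level was 19.3 to 26.6 scaled RPKM in NC 24 h, 25.0 to 76.7 in KD 24 h, up to 40.4 in NC 72 h and 97.4 to 165 in KD 72 h. Without Krt19 the other 8 summed to at most 3.4 in KD 72 h and 12.5 in NC 72 h. Upk3b, Lrrn4 and Muc16 were at 0 in all of KD 72 h, and Msln, Upk3b, Muc16, Krt7, Bnc1 and Upk1b in all of NC 72 h.

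Genes of the respiratory chain had more negative than positive differences. Of 6 mitochondrially encoded genes tested, 5 were negative, as were 6082 of all 12696 genes. Their median effect was -0.40 at 24 h and -1.10 at 72 h. Only 7 of the 26 names of this list were in the data. The ND5 and ND6 entries had nearly equal group means and may share reads. COX2 and COX3 rest on entries with a mean of 21.8 and 19.9 reads. COX1, the catalytic subunit of cytochrome oxidase, passed: it measured 589, 716 and 778 scaled RPKM (lowest, median, highest) in NC 24 h and 432, 491 and 534 in KD 24 h. In NC 72 h it measured 1070, 1090, 781, 814 and 1170, and in KD 72 h 387, 398 and 491. KD was lower without overlap at both times, and the gap widened by -0.74 ± 0.15 (adjusted p = 0.028) as NC rose by 0.50 (adjusted p = 0.0058) and KD changed by -0.25 (adjusted p = 0.12). COX1 was called in 11 of the 15 alternatives that tested it. Among others, the call ended on RPKM without scaling (-0.59, limma, adjusted p = 0.054), with no filter (0.083) and with the replicate block (0.079). It also ended in 10 of the 23 fits that left out a library (up to 0.062). COX1 was not among the genes whose reads could be recovered for limma-voom. An entry that GENCODE names mt-Nd2, named after its values were seen, had a difference of -0.92 ± 0.19 (adjusted p = 0.028), and the cDNA AK167184, whose values followed it closely, had -0.92 ± 0.19; entries of 1 gene can share reads.

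Of 74 nuclear genes of the respiratory chain and ATP synthase, 64 had a negative difference and none passed with limma, while 27 had an unadjusted p under 0.05. Over all 12696 genes, 6082 had a negative difference and 1585 an unadjusted p under 0.05. With limma-voom on recovered reads 8 of the 74 could be tested and none of these passed, while the other genes of the list were not covered. The smallest adjusted p was 0.059, of Cox7b, a subunit of cytochrome oxidase, at -0.47 ± 0.11. For 71 of the 74 the 95% interval of the difference lay within 1 log2 unit of 0. Their median effect was -0.19 at 24 h and -0.40 at 72 h, with 23 and 49 called lower, where 14.1% and 10.2% of all genes were. The median difference was -0.19 over this list and -0.03 without scaling, where that of all genes was 0.17. Acadm, the medium-chain enzyme of fatty acid oxidation, had -0.83 ± 0.20 (adjusted p = 0.059), and the list of 22 such enzymes a median of -0.17 with none called by limma, none by limma-voom among the 5 it covered, and 4 at an unadjusted p under 0.05.

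**Figure D5:**
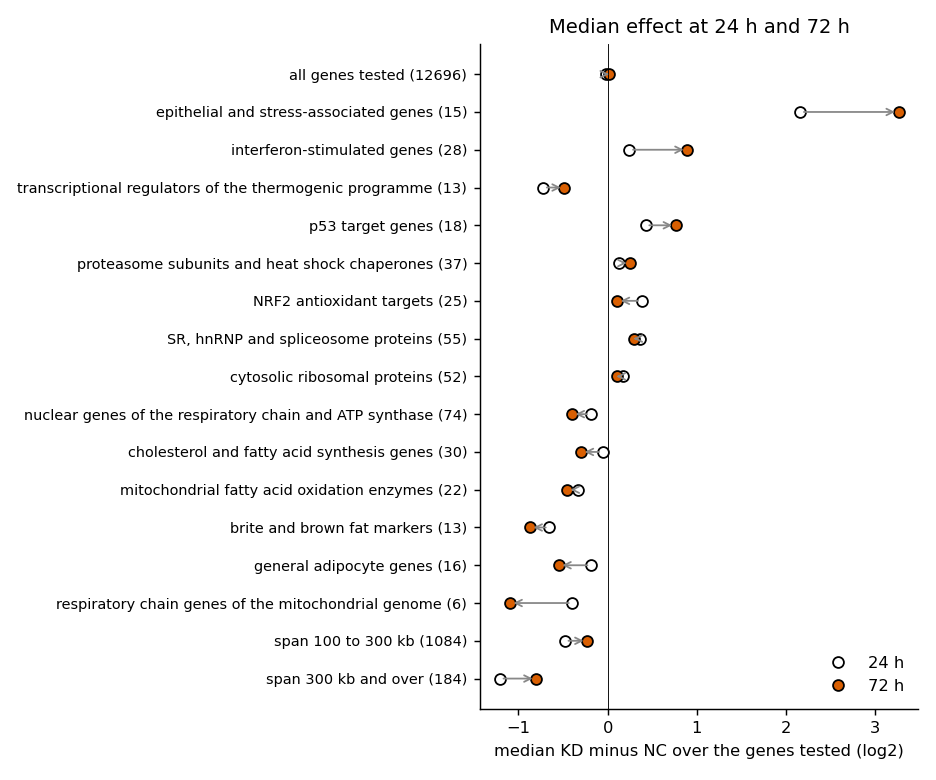
Median knockdown effect (KD minus NC, log2) at 24 h (open circles) and 72 h (filled circles) over the tested genes of each list, with their number in brackets and arrows from the earlier to the later time. Arrows point away from 0 for epithelial and stress-associated genes (2.16 to 3.26) and mitochondrially encoded genes (-0.40 to -1.10), and toward 0 for genes of 300 kb and over (-1.21 to -0.80).

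None of the 13 brite marker genes tested passed the interaction in limma, nor did any of the 8 that limma-voom covered, and 6 had an unadjusted p under 0.05. Kcnk3, a potassium channel with the smallest adjusted p (0.09), had effects of -0.91 and 0.20. Ucp1 measured 76.7, 143 and 199 scaled RPKM (lowest, median, highest) in NC 24 h, 44.2, 60.3 and 80.6 in KD 24 h, and 104, 129 and 251 in KD 72 h, against 884, 799, 598, 573 and 813 in NC 72 h. It rose over time in both conditions, by 2.47 in NC and 1.30 in KD, and the difference was -1.17 ± 0.35 (95% interval -1.90 to -0.45, adjusted p = 0.14). Cidea, a lipid droplet protein of brown fat, rose by 2.31 and 1.28 (difference -1.03 ± 0.31, adjusted p = 0.14). Cox7a1, a brown fat subunit of cytochrome oxidase, rose in NC by 0.82 and changed in KD by -0.04 (difference -0.86 ± 0.29, adjusted p = 0.20), with -1.34 in the larger and -0.07 in the smaller cluster. Ppargc1a, a coactivator of mitochondrial genes, had -0.50 ± 0.35, and Elovl3, a fatty acid elongase, had 0.41 ± 0.33 (adjusted p = 0.59 and 0.66). Of the 13 markers, 9 had a negative difference, as did 6082 of all 12696 genes, and the median of the markers was -0.29.

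The transcriptional regulators of the thermogenic programme showed no difference that passed in limma, or in limma-voom for the 10 it covered: of 13 tested, 8 were positive, 5 negative and 2 had an unadjusted p under 0.05. Ebf1, an early factor of the brown fat lineage, was nearest, with effects of -1.87 and -1.10 and a difference of 0.77 ± 0.26 (95% interval 0.24 to 1.30, adjusted p = 0.19). Prdm16, the co-regulator that sets brown fat identity, had -1.70 and -1.34 (difference 0.36 ± 0.46, interval -0.59 to 1.31), with 1.03 and -0.89 within the larger and the smaller cluster. Nfia had -2.03 and -1.68 (difference 0.36 ± 0.34), and 0.97 and -0.92 in the same order of clusters. Pparg, the receptor that drives fat cell formation, had -0.46 and -0.16 (difference 0.30 ± 0.18, interval -0.08 to 0.68). For Ppara, Thrb, Ebf2 and Cebpb the differences were -0.58 ± 0.30, -0.56 ± 0.34, -0.34 ± 0.30 and -0.23 ± 0.28, and none passed (adjusted p from 0.44 to 0.79). Adipoq and Fabp4, the adipocyte products adiponectin and the fatty acid binding protein, had -0.37 ± 0.23 and -0.36 ± 0.16 (adjusted p = 0.54 and 0.36).

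Genes of long span had a negative median effect at both times, nearer to 0 at 72 h. A span in the reference was found for 84.9% of the genes tested. The 184 genes of 300 kb and over had a median effect of -1.21 at 24 h and -0.80 at 72 h, and those of 100 to 300 kb, 1084 genes, had -0.48 and -0.23. The interaction was positive for 120 of the 184 and 736 of the 1084, with medians of 0.19 and 0.21, and 1 and 3 genes passed. Over all 12696 genes it was positive for 6614, and 0.386% passed. In the 6461 genes under 30 kb the median was 0.00. For the longest genes the medians within the larger and the smaller cluster were 0.29 and 0.03.

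The other lists had small medians. The 18 p53 targets had a median difference of 0.14 with Gdf15 called, which also stands among 23 genes of the ATF4 stress response (median 0.02). The 55 splicing proteins had -0.11 (0.05 without scaling) with none called by limma or, for 46 of them, limma-voom, 8 at an unadjusted p under 0.05, and effects of 0.36 and 0.29. The 30 genes of cholesterol and fatty acid synthesis had -0.19, the 30 proliferation genes 0.04 (0.30 in the larger and -0.49 in the smaller cluster), the 31 matrix genes -0.06 (-0.21 and 0.41) and the 37 proteasome and chaperone genes 0.11. Among markers of other cells, 15 macrophage and leukocyte markers in the table summed to 3.83 to 68.9 scaled RPKM over all groups. At 72 h their sum was 12 to 16.6 in KD and 17.5 to 68.9 in NC, without overlap, and at 24 h the groups overlapped. Cd163 was at 0 in every group but KD 24 h, where Mrc1 was. The 5 tested members of this list had a median difference of 0.15 in the larger and -2.08 in the smaller cluster. The 10 endothelial markers summed to 1.18 to 4.88, with Tie1 at 0 in all of both 72 h groups. Preadipocyte markers summed to 394 to 1040 and smooth muscle markers to 219 to 1670, with median differences of 0.25 over 9 genes and 0.19 over 8. For both of these sums KD and NC overlapped at each time. The part of other cells in the results above was not tested, and in bulk samples fewer cells of a type and less RNA per cell cannot be told apart.

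Most effects called at both times had the same direction. Of the 1400 genes called at both, 1392 did, 753 of them with the larger effect at 72 h and 639 with the larger at 24 h; 13 of the 1392 passed the interaction. For 885 of them the 95% interval of the difference lay within 1 log2 unit of 0, the wider intervals of the others leaving larger differences undetected. Of 1961 genes called at 24 h alone 5 passed the interaction, and of 1090 called at 72 h alone 24 did. For the other 1956 and 1066 a call at 1 time only did not show that the effect differed between the times.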

How the data were processed

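The study measured RNA from 24 libraries by BRB-seq, which reads the 3′ ends of barcoded transcripts. Per the study's methods, the authors aligned reads to NCBI RefSeq and tested them with DESeq2 in the Genomatix suite; the genome build, tool versions and strand handling are not given in the sources used here. The deposited table gives RPKM by the authors for 168326 transcript entries. Low values were whole multiples of 1 read in 94.9 to 95.5% of cases (tolerance 0.1 reads), from which depth was recovered. A floor of 3 reads equals 0.25 to 1.08 RPKM for a 2 kb transcript, and covers counting error only. The 0.25 rests on NC 72 h replicate 6, whose depth may be overstated.

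For each symbol the entry with the highest mean RPKM was kept, RefSeq first. RPKM was scaled by a trimmed mean of log ratios (30% and 5% trims), and genes with the equivalent of 10 reads in 5 samples and 15 in all were kept. limma 3.58.1 in R 4.3.3 was fitted to log2(scaled RPKM + 0.1) with 1 mean per group and an intensity trend, over 23 samples, with two-sided p-values adjusted by Benjamini-Hochberg over 12696 genes and a threshold of 0.05. Fold changes on this scale understate those of low genes. The scripts were tested on simulated data.

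Named genes were the 12 with the smallest interaction p in each direction (clone and accession names skipped), called members of the gene lists, reversed genes, and 16 fixed genes. The members, lists and motifs were chosen with earlier results of these data known. Alternatives covered scaling, pseudocount, filters, choice of entry, voom, sample weights, the averaged pair, the replicate block, the sample clusters and leaving out each library.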

Additional observations from a re-analysis of the deposited data

Results flagged for a closer look

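In 7 of 192 groups of named-gene values, or 3.6%, 1 sample stood far from the others, where chance gives about 1 in 20. COX1 was 491 scaled RPKM in KD 72 h replicate 5, the highest of its group. Anxa8 was 0.66 in KD 24 h replicate 4, the lowest, and Hspa1b was 5.56 in KD 72 h replicate 3, the lowest. Fam183b was 7.77 in KD 72 h replicate 5 and 2.36 in the averaged NC 72 h replicates 2 and 3, the lowest of each group. AK133114 was 1.45 in KD 24 h replicate 6 and Fabp4 was 47300 in NC 24 h replicate 2, each the highest of its group.

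The effect of the knockdown differed between 24 h and 72 h for 49 genes by the interaction term. Among them the effect changed sign, with a call at each time, for Ascc2 (difference 1.41), Vti1b (1.59), Rpl5 (-1.28), Stk38 (0.90), Ripk3 (0.97), Fam183b (2.16) and AK133114 (3.07).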

How the results depend on the processing

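All 49 genes kept their sign in every fit that tested them, 20 were called in every fit without 1 library, and 8 in every alternative that tested them as well (Ifi27l2b, Akr1b3, Akr1b8, Olr1, Tfpi2, Tubb2a, Zadh2 and AK054167). The knockdown by time interaction was less stable in its number of calls. Against 49 it was 216 without scaling (96.8% positive, against 73.5%), 78 and 87 with pseudocounts of 0.5 and 1, 30 with no filter, 111 at a mean RPKM of at least 5, 126 over all transcript entries, 176 with sample weights, 123 with the averaged pair kept apart, 168 with the cluster as a covariate, 245 in the larger cluster (49.0% positive), 446 in the smaller (15.9%), and 256 with the covariate and without KD 24 h replicate 6, a setting chosen after seeing the data. Voom gave 39 of the 11324 genes it covered (84.6% positive), and leaving out the averaged NC 72 h replicates 2 and 3 gave 32. The genes that grew or came late, 36 in the report, numbered in the same order 150, 60 and 66, then 81, 94, 95, 85, 113, 121, 412 and 165 (no filter moved them by less than 1.5 times). Calls within the gene lists, 11 in the report, numbered 18 without scaling, 5 with no filter, 7 with voom, 22 with sample weights, 28 with the covariate, 42 and 38 in the larger and smaller clusters and 33 in the added setting. The knockdown effect at 24 h, with 3361 calls, had 2115 at a mean RPKM of at least 5, 15368 over all entries and 210 in the smaller cluster; the knockdown effect at 72 h, with 2490, had 10642 over all entries. The change over time in NC, with 741 calls, had 3241 over all entries, 1173 with sample weights and 1422 in the added setting, and the change over time in KD, with 1910, had 8205 over all entries. The all-entries fit tests more rows. The cause of the other shifts was not tested.

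Replicate numbers did not pair the samples: mean correlations of deviations between same-numbered samples were -0.11, 0, -0.05 and 0.02. With the replicate block 22 genes were called, 17 that grew or came late and 4 in the lists. Without 1 library the counts ran from 20 to 110 (interaction), 2795 to 3899 (24 h), 2048 to 3094 (72 h), 555 to 1045 (NC over time), 1572 to 2114 (KD over time), 15 to 78 (grew or late) and 4 to 14 (lists). Depth limits genes at a few reads, such as Aqp2, Sprr2k and Slc5a7.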
